A study of Urocitellus parryii with 24 samples.

Results

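The mitochondrial β-oxidation and thiolase genes described here are 7 genes of fatty acid breakdown measured in the liver of the Arctic ground squirrel (AGS). They are the acyl-CoA dehydrogenases ACADVL, ACADL, and ACADS, the hydroxyacyl-CoA dehydrogenase HADH, and the thiolases HADHB, ACAA2, and ACAT1. They were chosen by gene name, out of 1329 genes that could be paired with 1 of the 9600 cDNA probes of the array. The pairing used the gene list of the study, which gives the mean level of each gene in each state, and all 7 genes were found. In the files the probes are gene7727 (ACADVL), gene2580 (ACADL), gene2672 (ACADS), gene8775 (HADH), gene5594 (HADHB), gene1726 (ACAA2), and gene7148 (ACAT1). The list holds genes that the study's own test over the states picked on these same arrays, with the probe of lowest p kept for each gene. Differences between states are therefore described for these genes, and they are no independent evidence that the genes differ.

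Mitochondrial β-oxidation shortens an activated fatty acid from its carboxyl end in a repeated cycle of dehydrogenation, hydration, a further dehydrogenation, and cleavage by a thiolase, which releases acetyl-CoA. Enzymes with different chain length preferences take over as the chain shortens, from membrane-bound long-chain enzymes to soluble enzymes for medium and short chains. In the fasting liver much of the acetyl-CoA is turned into ketone bodies, which other organs burn, and hibernators live largely on stored fat in this way.

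RNA from 24 livers was hybridized to nylon membranes, with 1 membrane for each animal. Torpid animals (T) numbered 9 and animals in an arousal episode (A) 8. The remaining 7, in the post-reproduction state (P), are called summer active in the sample labels. Of the T animals, 4 were taken early and 5 late in a torpor bout, and of the A animals, 4 were taken early and 4 late in an arousal episode, the early ones soon after body temperature had risen. The study set the liver genes that differ between these states beside those of other physiological conditions in mice, which are not analysed here.

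T and A animals had fasted through hibernation under a winter photoperiod, whereas P animals were warm, fed, and molting, with regressed gonads. T animals were killed without anesthesia and A and P animals under isoflurane. State cannot be told apart from anesthesia in comparisons with T, nor from fasting and photoperiod in comparisons with P. Total RNA was amplified and labelled with phosphorus-33, in 1 batch according to the labels. Each scanner file names the filter set of its membrane, A1 or A2. All 9 T arrays, 7 of 8 A arrays, and 2 of 7 P arrays were on A1, and the other 5 P arrays and late arousal replicate 2 were on A2. Comparisons with P are therefore given with all arrays, with a term for the filter set (the block), and on A1 filters only. On A1 filters P rests on 2 animals, summer active replicates 1 and 3. Since late arousal replicate 2 is the only array outside P on A2, without it the block would leave comparisons with P to those 2 P arrays. The identifiers of the animals in the labels share 1 prefix in 7 of 9 T, 7 of 8 A, and 1 of 7 P animals, so state and prefix can hardly be told apart in comparisons with P. The labels do not say what the prefix stands for.

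Levels are on the log2 scale, after subtraction of the local background and division by the median of the array, so that 0 is the median probe of an array and a difference of 1 is a doubling. All 7 probes had a signal over 2 times the background on all 24 arrays. None was marked as empty or near the scanner ceiling. The lowest ratio of signal to background was 3.57, for ACADS. Because each probe was compared only with itself, levels are not set against each other between genes. Of the hepatocyte markers, 8 of 8 were over 2 times the background on all arrays. Since 8157 to 9197 of the 9600 probes were over that level on each array, this is no test of the tissue. In tissue RNA, fewer cells of a type and less RNA per cell cannot be told apart.

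With all arrays, 6 of the 7 genes were higher in T than in P and 1, ACADS, was lower, each called at an adjusted p under 0.05 in limma (SE is the standard error). Of all 9593 probes tested 9.85% were called in this comparison, 5.5% higher and 4.35% lower in T, and of the 1329 listed genes 47.3% were. The differences ran from 0.82 for HADHB to 1.45 for ACAA2 among the genes higher in T, with a median over the 7 genes of 0.93, where it was -0.02 over all probes. Under the block 0 of 7 were called in limma, where 0.98% of all probes were, with adjusted p between 0.232 and 0.827. An unadjusted p under 0.05 was found for 4 genes, and for 994 of all 9593 probes. On A1 filters only 0 of 7 were called and 0 had an unadjusted p under 0.05. Of all probes 0.911% were called there, and 821 of 9555 had such a p. Each gene had the same direction in all 3 fits. With the identifier prefix as a block, 3 of 7 were called, ACADVL at 1.15 (adjusted p = 0.0261), HADH at 1.01 (adjusted p = 0.0102), and ACAA2 at 1.69 (adjusted p = 0.00328), where 5.46% of all probes were. The other 4 genes kept their direction there, with adjusted p between 0.0697 and 0.168. The values of every gene by stage are shown in the plot of levels on every array.

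**Figure D1:**
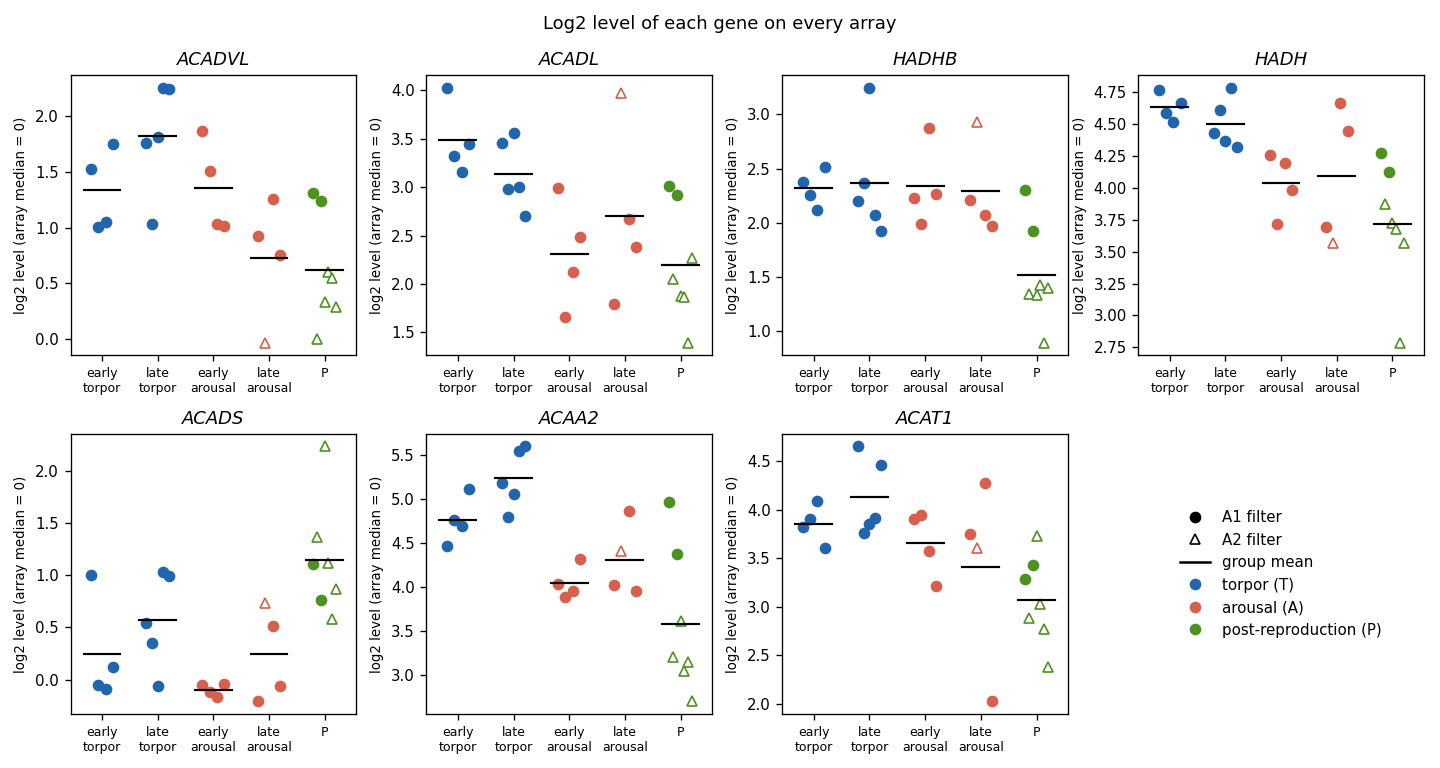
Log2 level of each of the 7 genes on every array (vertical axis, 0 is the median probe of the array), by stage of the hibernation cycle (horizontal axis). Filled circles are arrays on A1 filters, open triangles arrays on A2 filters, and bars group means. For 5 of the 7 genes all 5 P arrays on A2 lie below both P arrays on A1.

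ACADVL encodes the very long-chain acyl-CoA dehydrogenase of the inner mitochondrial membrane, which takes the first step on the longest chains. Its level ran from 1.01 over a median of 1.75 to 2.26 in T, from -0.03 over 1.03 to 1.86 in A, and from -0.0027 over 0.55 to 1.31 in P. Of the 9 T arrays 6 lay above every P array, and the lowest value in A was late arousal replicate 2, the A array on an A2 filter. T was higher than P by 0.99 (SE 0.25, adjusted p = 0.0126), or 1.98-fold. The difference was 0.24 (SE 0.27, adjusted p = 0.827) under the block and 0.33 on A1 filters only (SE 0.32, adjusted p = 0.889).

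ACADL encodes the long-chain acyl-CoA dehydrogenase of the matrix. In T it ran from 2.71 over a median of 3.32 to 4.03, in A from 1.66 over 2.43 to 3.97, and in P from 1.39 over 2.06 to 3.01. The value of 3.97 in A again came from late arousal replicate 2, and the next highest A array was at 2.99. T was higher than P by 1.10 (SE 0.27, adjusted p = 0.0125). With the block the difference was 1.08 (SE 0.38, adjusted p = 0.232), and on A1 filters only 0.33 (SE 0.31, adjusted p = 0.880). The block value rests on late arousal replicate 2, since the difference of A2 from A1 filters in ACADL was -0.03 with that array and -1.07 without it.

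ACADS encodes the short-chain acyl-CoA dehydrogenase, which acts on the last turns of the cycle. Between T and P its direction was opposite to that of the other 6 of the 7 genes, whatever their chain length. Genes of the wider list given below went in both directions. Its level was -0.09 to 1.03 in T with a median of 0.35, -0.21 to 0.74 in A with a median of -0.06, and 0.58 to 2.23 in P with a median of 1.10. Of the 8 A arrays 7 lay below every P array, and late arousal replicate 2 was the exception. The difference from P was -1.07 in A (SE 0.23, adjusted p = 0.00526) and -0.72 in T (SE 0.23, adjusted p = 0.0414). In T the call was lost without any 1 of 10 arrays, 6 T arrays and 4 P arrays, with an adjusted p of up to 0.119 without summer active replicate 4. Under the block the differences were -0.79 in A (SE 0.28, adjusted p = 0.154) and -0.38 in T (SE 0.30, adjusted p = 0.739). On A1 filters only they were -0.95 in A (SE 0.31, adjusted p = 0.177) and -0.51 in T (SE 0.30, adjusted p = 0.738).

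HADH encodes the soluble hydroxyacyl-CoA dehydrogenase, which oxidizes medium and short chains in the third step of the cycle. Its level ran from 4.32 over a median of 4.58 to 4.78 in T, from 3.57 over 4.09 to 4.66 in A, and from 2.79 over 3.72 to 4.27 in P. All 9 T arrays lay above all 7 P arrays, including both on A1 filters, which holds for 0.403% of all probes with values on these arrays. No other gene of the 7 had T and P fully apart. The difference between T and P was 0.84 (SE 0.18, adjusted p = 0.00549) over all arrays, 0.39 under the block (SE 0.22, adjusted p = 0.568), and 0.36 on A1 filters only (SE 0.23, adjusted p = 0.781).

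HADHB encodes the subunit of the mitochondrial trifunctional protein that holds its long-chain thiolase. Its level ran from 1.93 over a median of 2.26 to 3.25 in T, from 1.97 over 2.22 to 2.93 in A, and from 0.90 over 1.40 to 2.30 in P. T and A covered nearly the same range, and 6 of the 7 P arrays lay below every T and A array. The excess over P was 0.82 in T (SE 0.20, adjusted p = 0.0115) and 0.80 in A (SE 0.21, adjusted p = 0.0185). Under the block they were 0.64 (SE 0.27, adjusted p = 0.381) and 0.65 (SE 0.26, adjusted p = 0.243). On A1 filters these differences were 0.23 (SE 0.28) and 0.11 (SE 0.28), with adjusted p of 0.912 and 0.954.

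ACAA2 encodes the mitochondrial ketoacyl-CoA thiolase for medium chains. It had the widest span, from 4.47 over a median of 5.05 to 5.60 in T, from 3.89 over 4.02 to 4.86 in A, and from 2.70 over 3.20 to 4.96 in P. The 5 P arrays on A2 lay below every A array, while the P arrays on A1, at 4.96 and 4.38, lay within or above the range of A. T was higher than P by 1.45 (SE 0.25, adjusted p = 9.65e-04), or 2.72-fold, the largest difference of the 7 genes. With the block it was 0.84 (SE 0.30, adjusted p = 0.253), and on A1 filters only 0.35 (SE 0.29, adjusted p = 0.847).

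ACAT1 encodes the mitochondrial acetoacetyl-CoA thiolase, which cleaves the last intermediate and also joins acetyl-CoA units at the start of ketone body synthesis. Its level ran from 3.60 over a median of 3.91 to 4.65 in T, from 2.03 over 3.67 to 4.27 in A, and from 2.38 over 3.03 to 3.73 in P. The low A value came from late arousal replicate 4. T was higher than P by 0.93 (SE 0.24, adjusted p = 0.0166), and 8 of 9 T arrays lay above all P arrays. Under the block the difference was 0.78 (SE 0.33, adjusted p = 0.388). On A1 filters it was 0.65 (SE 0.38, adjusted p = 0.729), and all 9 T arrays lay above both P arrays there, as did those of HADH and of 3.07% of all probes.

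Between A and P, 2 of 7 genes were called over all arrays, HADHB higher and ACADS lower in A, where 8.46% of all probes were called, 2.63% higher and 5.84% lower, and 38.5% of the listed genes. For the other 5 genes A was above P by 0.31 to 0.60, with adjusted p between 0.143 and 0.515. Under the block 0 of 7 were called in limma and 2 had an unadjusted p under 0.05. Of all probes 2.7% were called there, and 1228 of 9593 had such a p. On A1 filters only the direction turned for 4 genes, to -0.52 for ACAA2, -0.66 for ACADL, -0.08 for ACADVL, and -0.06 for HADH. Again 0 of 7 were called in limma there, where 0.9% of all probes were. An unadjusted p under 0.05 was found for 2 genes, and for 1034 of 9555 probes. The block also turned ACADVL, to -0.19, and HADH, to -0.02. With the identifier prefix as a block 0 of 7 were called in limma and 4 had an unadjusted p under 0.05. Of all probes 2.5% were called in that fit, and 1893 of 9593 had such a p. HADHB was then at 0.72 (adjusted p = 0.136) and ACADS at -0.97 (adjusted p = 0.0761). The plot of the 3 fits sets these values side by side.

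**Figure D2:**
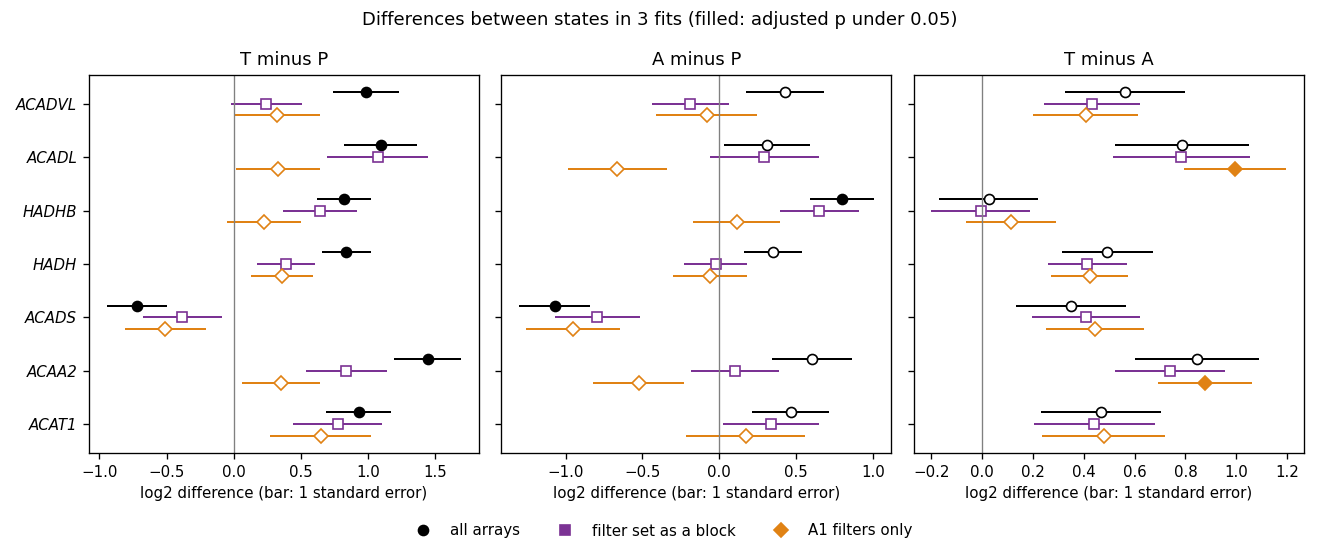
Difference in log2 level between states (horizontal axis, bars are 1 standard error) for each gene (vertical axis) with all arrays, under the filter set block, and on A1 filters only. Filled symbols have an adjusted p under 0.05 in limma. All 7 genes are filled for T minus P with all arrays and none with the block or on A1 filters, whereas for T minus A only ACADL and ACAA2 on A1 filters are filled.

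The filter set was set against the level of each gene directly. In a fit with state and filter set, 3 of 7 genes were lower on A2 than on A1, where 10.3% of all probes were called lower and 20.1% in either direction. These were ACADVL by -1.04 (SE 0.25, adjusted p = 0.00496), HADH by -0.63 (SE 0.21, adjusted p = 0.0327), and ACAA2 by -0.85 (SE 0.29, adjusted p = 0.0389). Within P alone, 3 genes were called, where 7.1% of all probes were and 3.2% were lower. The differences of A2 from A1 were then -1.53 for ACAA2 (adjusted p = 0.0197), -1.07 for ACADL (adjusted p = 0.0391), and -0.93 for ACADVL (adjusted p = 0.0456). Of the 7 genes 6 are low in P, and most P arrays are on A2, so the listing is tied to this direction as well.

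All 5 P arrays on A2 lay below both P arrays on A1 for ACADVL, ACADL, HADHB, HADH, and ACAA2, 5 of 7 genes. The same holds for 15.2% of all probes and for 23% of the 1312 listed genes with values on these arrays. ACADL was at 3.01 and 2.91 on the A1 filters and at 2.06, 1.87, 1.87, 1.39, and 2.27 on the A2 filters. ACAA2 was at 4.96 and 4.38 on A1 and at 3.20, 3.62, 3.05, 3.15, and 2.70 on A2. ACADS and ACAT1 overlapped between the sets. Whether the P animals on the 2 sets differed in another way cannot be told apart from the filter set. T arrays lay above all 5 P arrays on A2 for the same 5 genes, as for 4.99% of all probes.

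Late arousal replicate 2, the only array outside P on an A2 filter, did not follow 1 direction. It was the lowest of 8 A arrays for ACADVL, at -0.03, and for HADH, at 3.57. For ACADL, at 3.97, HADHB, at 2.93, and ACADS, at 0.74, it was the highest. In the fit of filter set by state, ACADL on this 1 array stood apart from what the filter sets in P would give, as 0.0629% of all probes did at an adjusted p under 0.05. With 1 animal, this does not show that the filter sets differed between the states.

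**Figure D3:**
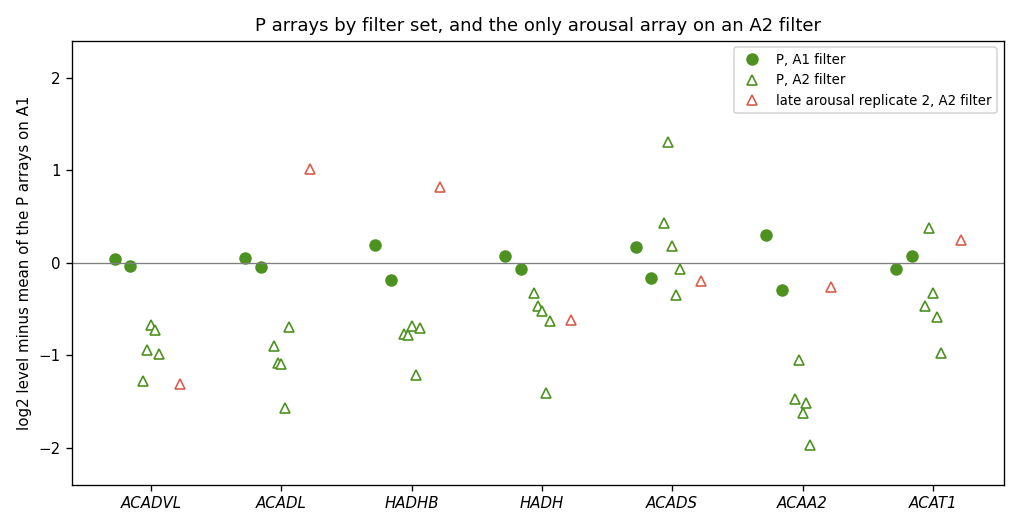
Log2 level of each gene on the P arrays and on late arousal replicate 2, relative to the mean of the P arrays on A1 filters (vertical axis). Filled circles are P arrays on A1, open green triangles P arrays on A2, and open red triangles the only A array on A2. The P arrays on A2 lie below 0 for all genes but ACADS and 1 array of ACAT1, while the A array lies above 0 for ACADL, HADHB, and ACAT1.

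Between T and A nearly all arrays were on A1 filters, so this comparison is the one least tied to the filter set. With all arrays 0 of 7 genes were called in limma, where 0.469% of all probes and 2.33% of the listed genes were called. An unadjusted p under 0.05 was found for 4 genes, and for 1348 of all 9593 probes. Under the block the counts for the genes were again 0 and 4. There 1.29% of all probes were called, and 1527 of 9593 had an unadjusted p under 0.05. Over all arrays T was above A for all 7 genes, from 0.03 for HADHB to 0.85 for ACAA2 (adjusted p = 0.0900 in limma). The same direction held for 5503 of all 9593 probes, with a median of 0.05, and for 37 of the 45 probes called. With quantile normalization 4 of the 18 probes called were higher in T, so this array-wide direction depends on the normalization. On A1 filters only, which leaves out late arousal replicate 2, the excess of T was 0.995 for ACADL (SE 0.20, adjusted p = 0.0163) and 0.88 for ACAA2 (SE 0.19, adjusted p = 0.0220), and both were called. Of all probes 1.38% were called there. For ACADL 7 of 9 T arrays lay above all 7 A arrays on A1, and for ACAA2 5 of 9 did. No gene of the 7 had T and A fully apart, as 0.148% of all probes did with T above. The other 5 genes differed by 0.11 to 0.48, with adjusted p between 0.153 and 0.798. Without summer active replicate 1, ACAA2 was also called over the remaining arrays (adjusted p = 0.0478).

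Markers of other cells were read as ratios to the array median, summed over each list, and none was at or below 0 on any array. HBA2, the 1 of 3 red blood cell markers with a named probe, was at 0.973 to 7.81 in T, 0.402 to 2.42 in A, and 1.55 to 2.42 in P. The 8 hepatocyte markers summed to 492.6 to 1311 in T, 410.5 to 708 in A, and 629 to 952 in P. The 3 fibroblast markers, of which 2 were over 2 times the background on all arrays, summed to 1.53 to 3.41 in T, 1.75 to 2.73 in A, and 1.93 to 3.86 in P. The adipocyte marker FABP4 was at 0.715 to 0.840 on the P arrays on A2 and at 1.14 and 1.16 on those on A1, against 0.895 to 1.34 in T and 0.862 to 1.502 in A. The 3 endothelial and immune markers, 2 of them over 2 times the background, summed to 9.21 to 22.2 in T, 7.12 to 12.9 in A, and 10.2 to 27.3 in P, and the 5 muscle and heart markers, 3 of them over 2 times the background, to 3.18 to 3.98, 2.78 to 4.11, and 2.67 to 3.59. Within the lists single markers moved in both directions. The markers too could be named only through the study's list, which was chosen on these same arrays. Of the listed genes 47.3% were called between T and P, 38.5% between A and P, and 2.33% between T and A. Of all probes 9.85%, 8.46%, and 0.469% were. Of the 21 markers 9 were called between T and P, 5 higher in T and 4 lower. Those higher were the hepatocyte genes APOB, by 0.71, and ASGR2, by 0.64, the muscle and heart genes ACTA1, by 1.35, and MYL4, by 0.57, and the fibroblast gene DCN, by 0.70. Those lower were FGB of hepatocytes, at -1.28, DES and MYL7 of muscle, at -1.19 and -0.44, and COL12A1 of fibroblasts, at -1.04. Between A and P 6 were called, with ACTA1 higher by 1.10 and 5 lower, the hepatocyte genes APOA2 at -1.11, SERPINA1 at -0.81, and TTR at -1.32, LYZ at -1.14, and LUM at -0.77. Between T and A only APOB was, at 0.86, on all arrays. Under the block 0 of 21 were called between T and P, APOA2 and TTR between A and P, and APOB and C3 between T and A. The shares of all probes called there were 0.98%, 2.7%, and 1.29%. Between the filter sets 4 of 21 were called, near the share of all probes called there, 20.1%. These were ACTA1 at -1.77, DES at 1.49, TNNT2 at -0.85, and DCN at -0.76 on A2 relative to A1. The part of these cells in the differences above was not tested.

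Stages were compared in a fit over 5 groups, of which the listing of the genes made no use within T or within A. Between early and late torpor 0 of 7 genes and 0 of 9578 probes were called in limma, with 455 probes at an unadjusted p under 0.05. Within arousal the counts were again 0 and 0, with 748 probes at that level. None of the 7 genes had an unadjusted p under 0.05 in either. Among the largest stage differences, ACADVL was lower in late than in early arousal by -0.63 (SE 0.32, adjusted p = 0.662). Late torpor exceeded early torpor by 0.49 for ACADVL and 0.48 for ACAA2, while for ACADL the difference was -0.35, each at an adjusted p of 0.998.

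From late torpor to early arousal 0 of 7 genes were called over all arrays, where 0.668% of all probes were. An unadjusted p under 0.05 was found for 3 of 7, and for 1230 of 9578 probes. ACAA2 was at 5.18, 4.80, 5.05, 5.54, and 5.60 in late torpor and at 4.03, 3.89, 3.95, and 4.32 in early arousal. The groups did not overlap, and the difference was -1.19 (adjusted p = 0.0878 over all arrays). All arrays of these groups were on A1 filters, and with the spread estimated on A1 filters only the same difference had an SE of 0.23 and was called, as 1.53% of all probes were (adjusted p = 0.0200). It was also called under the block, as 1.55% of all probes were (adjusted p = 0.0328). Most probes called in this step were lower in early arousal, 63 of 64 over all arrays. On A1 filters 140 of 146 were, and under the block 138 of 148. With quantile normalization 2 probes were called, 1 in each direction, so the calls depend on the normalization. HADH was at 4.43, 4.61, 4.36, 4.78, and 4.32 in late torpor and at 4.26, 3.71, 4.19, and 3.98 in early arousal. These also did not overlap, as for 4.61% of all probes, and the difference of -0.46 was not called (adjusted p = 0.468). ACADL was at 3.45, 2.98, 3.56, 2.999, and 2.71 in late torpor and at 2.99, 1.66, 2.13, and 2.48 in early arousal, so 2 late torpor arrays lay within the range of early arousal, and the difference was -0.83 (adjusted p = 0.325).

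**Figure D4:**
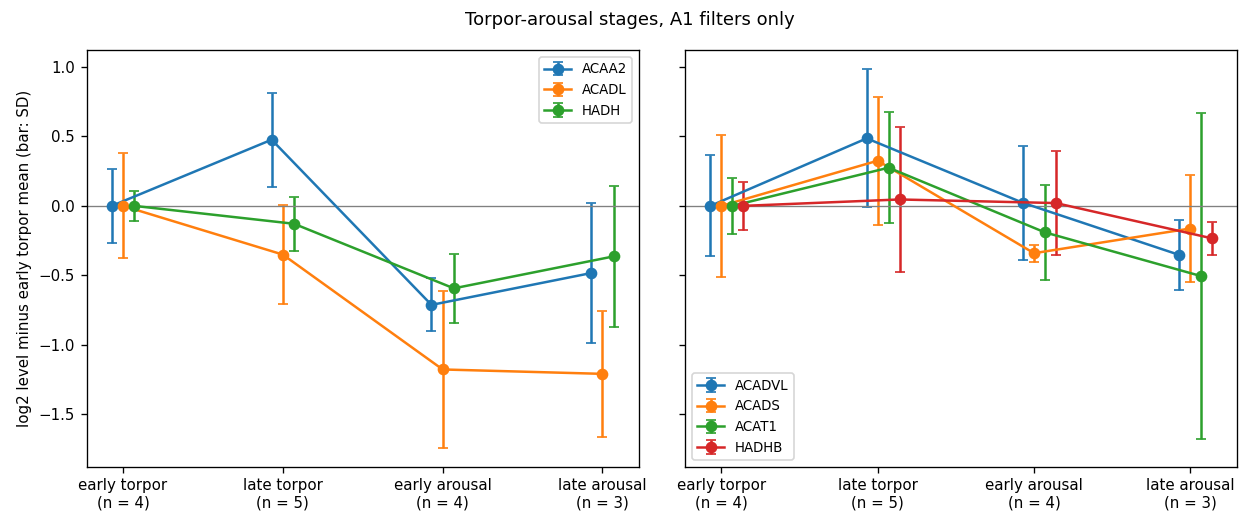
Mean log2 level in each stage of the torpor-arousal cycle relative to early torpor (vertical axis, bars are the SD) over the arrays on A1 filters, with ACAA2, ACADL, and HADH on the left and the other genes on the right. The means of ACAA2, ACADL, HADH, ACADS, and ACAT1 are lower in both arousal stages than in both torpor stages, and those of ACADVL and HADHB are not. The SD bars of HADHB overlap in all 4 stages. For every other gene at least 1 torpor bar overlaps an arousal bar.

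From late arousal to early torpor 0 of 7 genes and 0 of 9578 probes were called in limma, 765 probes had an unadjusted p under 0.05, and none of the 7 genes did. ACADL was at 1.79, 3.97, 2.67, and 2.38 in late arousal and at 4.03, 3.32, 3.16, and 3.45 in early torpor, a difference of 0.79 (adjusted p = 0.624). Without late arousal replicate 2 the difference was 1.21, still not called on A1 filters only (adjusted p = 0.244).

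In the order of the 5 groups, late torpor had the highest mean for ACADVL, HADHB, ACAA2, and ACAT1, early torpor for ACADL and HADH, and P for ACADS. P had the lowest mean for every gene but ACADS, which was lowest in early arousal. A step between neighbours was set against the pooled SD of the 2 groups. For ACAA2 the steps from late torpor at 5.24 ± 0.34 (SD, n = 5) to early torpor at 4.76 ± 0.27 (SD, n = 4) and on to late arousal at 4.31 ± 0.42 (SD, n = 4) were larger than that SD, and the steps to early arousal at 4.05 ± 0.19 (SD, n = 4) and to P at 3.58 ± 0.81 (SD, n = 7) were not. For HADHB the 4 winter stages lay between 2.29 and 2.36, and only the step from late arousal to P, at 1.52 ± 0.46 (SD, n = 7), was larger. For ACADL and ACAT1 no step exceeded the SD of its neighbours. For HADH it was the step from late torpor at 4.50 ± 0.19 (SD, n = 5) to late arousal at 4.09 ± 0.54 (SD, n = 4). For ACADS it was the step from P at 1.15 ± 0.54 (SD, n = 7) to late torpor at 0.57 ± 0.46 (SD, n = 5). ACADVL had 2 such steps, from late torpor at 1.82 ± 0.50 (SD, n = 5) to early arousal at 1.36 ± 0.41 (SD, n = 4), and from early torpor at 1.33 ± 0.36 (SD, n = 4) to late arousal at 0.73 ± 0.55 (SD, n = 4).

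Against P, late torpor was called for 5 of 7 genes, ACAA2, ACADVL, ACAT1, HADH, and HADHB, where 4.58% of all probes were called. Early torpor was called for ACAA2, ACADL, and HADH, 3 of 7, where 3.12% were. Early arousal was called for ACADS and HADHB, 2 of 7 where 9.02% were, and late arousal for 0 of 7, where 1.02% were. In late arousal 3 of 7 had an unadjusted p under 0.05, as had 1416 of 9578 probes. These 4 comparisons share the same P arrays, and none of the genes was called in any of them on A1 filters only.

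Chain length was summarized on each array as the mean of the long-chain genes ACADVL, ACADL, and HADHB minus the mean of the short-chain and medium-chain genes ACADS and HADH, after each gene was centred on its own mean over the 24 arrays. In T this value was 0.28 ± 0.36 (SD, n = 9). In A it was 0.24 ± 0.29 (SD, n = 8), and in P it was -0.63 ± 0.51 (SD, n = 7). All 7 P arrays were below 0, from -1.44 to -0.06, while T ran from -0.11 to 1.08 and A from -0.23 to 0.61. The P arrays on A1 were at -0.12 and -0.06, and those on A2 between -1.44 and -0.38. T thus lay above P by 0.91 over all arrays and by 0.37 on A1 filters only, and A by 0.87 and 0.30. T and A differed by 0.04, less than the spread within each group. With HADH in neither class, so that ACADS stood alone for the short chains, T lay above P by 1.69. With the thiolases ACAA2 and ACAT1 put with the short and medium chains, T lay above P by 0.34 and A by 0.42. ACADS was the 1 gene of the 7 below P in T, and the value is carried by it. No test was made of this value, because its members were chosen with results known.

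The order of the thiolases, which have different chain length preferences, depended on the fit. With all arrays T minus P was 0.82 for the long-chain HADHB, 1.45 for the medium-chain ACAA2, and 0.93 for the short-chain ACAT1. ACAA2 also had the largest T minus P of the thiolases under the block. On A1 filters only, T minus P rose as the chain shortened, from HADHB over ACAA2 to ACAT1, and none was called. T minus A on A1 filters was 0.11 for HADHB, 0.88 for ACAA2, and 0.48 for ACAT1. The difference between the genes was not tested.

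Over the 24 arrays, the genes with the most similar pattern were sought among 1312 named probes by the root mean square difference of centred log2 levels. The nearest of all was ETFDH to HADH, at 0.22. ETFDH encodes the ubiquinone oxidoreductase that takes electrons from the acyl-CoA dehydrogenases into the respiratory chain. PRR13 and SRRD followed for HADH, at 0.29 and 0.30. For ACADL the third nearest was HADHB, at 0.53, after GRN and SRRM1, at 0.51 and 0.52. No other gene of the 7 was among the 3 nearest of another. ACADVL had PSMD9 at 0.37, IGBP1 at 0.38, and HDHD3 at 0.38, and HADHB had LOC728198 at 0.37, MED6 at 0.37, and SLC3A2 at 0.38. ACADS had the growth hormone receptor GHR at 0.38, UGP2 at 0.39, and DNAJC18 at 0.39. ACAA2 had GGPS1 at 0.41, C9orf105 at 0.44, and TMCO1 at 0.46, and ACAT1 had FAM114A1 at 0.40 and KCTD8 at 0.41 among its 3 nearest. ACADS lay at 0.84 to 1.07 from the other 6 genes. All these probes share arrays and filter sets, and the values are descriptions.

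Of 48 other genes of fatty acid activation, oxidation, and ketone body use, 15 had a named probe. They too were listed by the study on these arrays. Over all arrays 10 of the 15 were called between T and P, 5 higher and 5 lower, and 8 between A and P, 1 higher and 7 lower, against the 9.85% and 8.46% of all probes given above. Between T and A 1 was called, where 0.469% of all probes were. Of all listed genes 47.3%, 38.5%, and 2.33% were called in the 3 comparisons. Under the block the counts were 0, 3, and 2, where 0.98%, 2.7%, and 1.29% of all probes were called. Unlike the 7 genes, this wider list had a median T minus P below 0, at -0.47.

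Among the electron transfer and auxiliary genes, ETFDH was at 2.60 to 3.19 in T and 1.53 to 2.71 in P, and T was higher by 0.96 (adjusted p = 9.95e-04). Its difference between T and A, 0.50 with the block, was called (adjusted p = 0.0386), while without the block it was 0.60 and not called (adjusted p = 0.0786). DCI, an isomerase that moves double bonds of unsaturated chains into place, was lower than in P by -0.86 in T and -1.20 in A. It was at -0.34 and -0.17 on the P arrays on A1, between the lowest and highest T arrays at -0.73 and 1.09, and at 0.69 to 1.51 on those on A2.

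OXCT1, which activates ketone bodies for burning outside the liver, exceeded P by 1.33 in T and 1.32 in A over all arrays, called in both. Its P arrays on A2 lay between -3.05 and -2.76 and those on A1 at -1.02 and -0.32, against -1.48 to -0.53 in T. All these levels were below the array median, those on A2 far below it. The check of signal over background given above did not include OXCT1. On A1 filters only the differences were -0.25 and -0.05, so the direction turned.

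Among the other dehydrogenases ACAD10 exceeded P by 0.77 in T, and ACADSB, which acts on branched short chains, was lower in A by -1.29 over all arrays and by -2.12 with the block (adjusted p = 0.00326). That value rests on late arousal replicate 2, at -1.85, where the other A arrays ran from -0.74 to 1.81, and on A1 filters only ACADSB differed by -1.42 and was not called (adjusted p = 0.150). MLYCD, which breaks down malonyl-CoA, was lower by -0.91 in T and -0.84 in A, ACSL5, which activates long chains, by -1.04 in T, and ACSM1, which activates medium chains, by -0.86 in A. ACAT2, the cytosolic counterpart of ACAT1, was lower by -1.06 in T and -1.73 in A, opposite to ACAT1, and stayed called in A with the block at -1.25 (adjusted p = 0.0467). Its P arrays were at 5.02 and 5.18 on A1 and at 5.58 to 6.44 on A2, against 3.83 to 5.26 in T. On A1 filters only ACAT2 was not called between A and P. MUT, a mutase for the propionyl-CoA left by odd chains, was higher in T by 1.02, but by 0.06 with the block. MCEE, of the same route, was called only between A and P, and ACAD11 and PDK2 in no comparison of the states over all arrays.

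**Figure D5:**
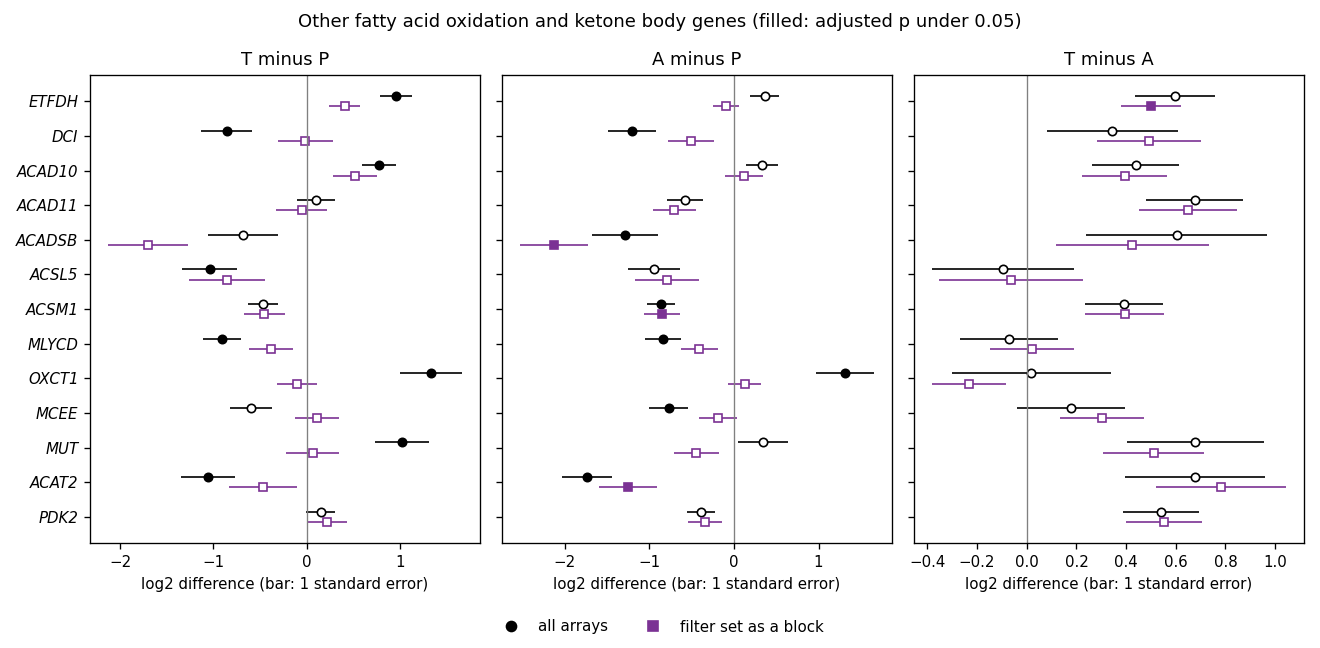
Difference in log2 level between states (horizontal axis, bars are 1 standard error) for 13 of the 15 other genes of fatty acid oxidation and ketone body metabolism (vertical axis), with all arrays and under the filter set block. Filled symbols have an adjusted p under 0.05 in limma. ETFDH is filled for T minus A under the block, ACADSB, ACAT2, and ACSM1 for A minus P under the block, and no gene for T minus P under the block.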

How the data were processed

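Each membrane was scanned on a phosphorimager, and ImaGene files deposited by the authors give each spot an intensity, a local background intensity, and a flag score that marks empty spots. A deposited table of processed values holds the ratio of background-subtracted signal to its array median. The same ratio was computed again from the spots, and its log2 was used for all results, as in the methods. Spots at or below 0 (668 of 230400) were treated as missing values. The deposited ratio differed from the recomputed one by at most 4.98e-07 outside spots set to its floor of 0.002. Arrays had median signals of 54.1 to 132 and median backgrounds of 13.3 to 19.9, with 8157 to 9197 probes over 2 times the background. Precision is limited by how many arrays there are.

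Symbols were matched to probes through the state means of the study's gene list, within 1e-04. The largest distance was 5.00e-06, and no second probe came nearer than 0.00532. Probes are cDNA clones named by the authors through the 13-lined ground squirrel genome and human genes, and cross-hybridization between related genes was not tested. No sequence is shown.

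Tests were made with limma 3.58.1 in R 4.3.3 (lmFit, eBayes) over 3 states, 5 groups, or state and filter set, with Benjamini-Hochberg adjustment over all probes tested and calls at an adjusted p under 0.05. The fit was tested on simulated data. Tables and plots were made with pandas 2.3.3, numpy 2.4.6, and matplotlib 3.10.9. The members and gene lists were chosen with earlier results of these data known. The 7 members are named in full, of the wider list up to 12 called genes with values, and the 3 nearest probes of each member. Some genes these rules name are not reported here, and counts include them. P-values treat each animal as a replicate, named here by its group and a number given in accession order.

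The alternatives tried were quantile normalization, normexp correction (offset 50), the deposited ratio, a floor in place of missing values, a filter that kept probes over 2 times the background on 7 or more arrays, a filter set term (the block), A1 filters only, the prefix of the animal identifier as a block, the fit over 5 groups, the methods' test (ANOVA, Storey q-values, then Tukey HSD), leaving out each array, and, for chain length, HADH in neither class. The fit of filter set by state and the chain length value with ACAA2 and ACAT1 were added after the data were seen. So was blocking on the scanner ceiling, the highest median signal of any spot on an array, split into 2 levels.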

Additional observations from a re-analysis of the deposited data

Results flagged for a closer look

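HADHB stood at 3.25 in late torpor replicate 3, and the gap to the next T array was 0.552 of the range of the 9 T arrays. Without it the difference between T and P was 0.71 and between T and A -0.09. ACAT1 stood at 2.03 in late arousal replicate 4, with a gap of 0.531 of the range of the 8 A arrays. Without it ACAT1 was higher in A than in P by 0.68 and called (adjusted p = 0.0390 from limma). These were 2 of 49 groups of arrays tested, and chance alone places about 1 in 20 groups apart in this way.

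In the fit of filter set by state, the difference of A2 from A1 filters for ACADL was 2.74 higher in A than in P on the log2 scale (adjusted p = 0.0377 from limma), 1 of 14 such differences tested. Late arousal replicate 2 is the only A array on an A2 filter, so this value compares 1 array with the other A arrays, and its spread is assumed to be that of the other groups. It does not show that the filter sets act differently in A and in P.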

How the results depend on the processing

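Under the filter set block 0 members were called for T against P and 0 for A against P, on A1 filters only again 0 and 0, and with the identifier prefix as a block 3 and 0. The members' median difference between T and P was 0.33 on A1 filters. Between A and P, 5 members were called with normexp, where 18.2% of all probes were, and 4 with quantile normalization, where 5.95% were. Between T and A, 3 were called by the methods' test, where 6.23% were, and 2 on A1 filters, and from late torpor to early arousal 1 under the block and 1 on A1 filters. The wider list had 6 (normexp), 0 (block), 1 (A1 filters), and 5 (prefix) calls between T and P. It had 3 (block), 0 (A1 filters), and 2 (prefix) between A and P, and 6 (methods' test), 0 (normexp), 0 (quantile), and 2 (block) between T and A. Chain length values over P were 0.37 in T and 0.30 in A on A1 filters, 1.69 and 1.58 without HADH, and 0.34 and 0.42 with ACAA2 and ACAT1 in the short and medium class.

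Many of the turned directions were at small values. Those of ACADL and ACAA2 between A and P were not, from 0.31 and 0.60 over all arrays. On A1 filters A minus P was -0.082 for ACADVL, -0.66 for ACADL, -0.062 for HADH, and -0.52 for ACAA2, and under the block -0.19 for ACADVL and -0.024 for HADH. For HADHB, T minus A was -0.10 (normexp), -0.22 (quantile), and -0.0047 (block), late minus early torpor -0.050 (normexp), late minus early arousal 0.021 (block), early arousal minus late torpor 0.17 (normexp) and 0.32 (quantile), and early torpor minus late arousal -0.029 (normexp), -0.11 (quantile), and -0.041 (block). For HADH, late minus early arousal was -0.014 (normexp), -0.18 (quantile), and -0.0082 (prefix), and early arousal minus late torpor 0.042 (quantile). For ACADS, early torpor minus late arousal was 0.0043 (normexp), 0.0054 (quantile), 0.10 (block), and 0.16 (A1 filters). For ACADL, late minus early arousal was -0.032 (A1 filters), and A2 minus A1 was 0.13 with the scanner ceiling as a block. The cause of these changes was not tested.

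With each array left out in turn, members called ranged from 6 to 7 between T and P, 2 to 3 between A and P, 0 to 1 between T and A, 0 to 1 from late torpor to early arousal, and 1 to 3 for the filter set, where 1 remained without summer active replicate 1, 3, or 6. The wider list ranged from 6 (without summer active replicate 4) to 12 between T and P, 6 to 10 between A and P, and 1 to 3 between T and A, with 3 without late arousal replicate 3 and 2 without early arousal replicate 3 or summer active replicate 1. Turned directions gave the ranges -0.086 to 0.11 for HADHB between T and A, -0.17 to 0.16 for HADHB from early to late torpor, and from early to late arousal -0.032 to 0.69 for ACADL, -0.25 to 0.14 for HADHB, -0.13 to 0.23 for HADH, and -0.54 to 0.21 for ACAT1. From late torpor to early arousal HADHB ranged from -0.20 to 0.19, and from late arousal to early torpor HADHB from -0.085 to 0.23, ACADS from -0.25 to 0.16, and ACAT1 from -0.021 to 0.73. For A2 minus A1 ACADL ranged from -1.07 to 0.36 and HADHB from -0.83 to 0.045. Chain length between T and A ranged from -0.063 to 0.090. Without late arousal replicate 2, ACADL was called between the filter sets (adjusted p = 0.0357), and ACADVL was not (adjusted p = 0.0712). HADH lost this call without any 1 of 4 arrays and ACAA2 without any 1 of 6, at -0.47 without summer active replicate 1. Also without summer active replicate 1, ACAA2 was called from late torpor to early arousal (adjusted p = 0.0411) and between A and P (adjusted p = 0.0181). No paired analysis applied, because each animal was killed in 1 stage and the groups hold different animals. P on A1 filters rests on 2 animals, which limits every comparison with P there.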
